A study of Mus musculus with 6 samples.

Results

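Endothelial cells line the blood vessels of the retina, and 226 of the 27225 nuclei kept from 3 mouse retina libraries were assigned to them. A nucleus was kept when its barcode held at least 500 RNA molecules, counted as unique molecular identifiers (UMIs), with at most 10% of them mitochondrial. A kept nucleus was taken as endothelial when at least 4 of 10 vascular genes were detected (Cldn5, Pecam1, Cdh5, Flt1, Kdr, Tek, Ptprb, Emcn, Vwf and Ly6c1) with at least 6 UMIs together. By this rule 81 endothelial nuclei came from the control library, 62 from the 2-week library and 83 from the 4-week library. The levels of those 10 genes chose the nuclei, so they are described below and support nothing else.

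The nuclei came from fresh retinas of C57BL/6J mice, dissociated with papain before nuclei were extracted, and each was read for RNA and for open chromatin (ATAC) with the 10x multiome assay. The control group was naïve and received no vector. The other groups were given AAV2/2 that overexpresses WIF1, a secreted antagonist that captures Wnt ligands outside the cell, and were taken at 2 weeks and 4 weeks "AVI", an abbreviation left unexplained in the labels. Vectors with a CMV promoter are listed in the design, CMV-Wif1-HA and a form of it with IRES-GFP, without saying which was given, and 2 eyes per group without saying whether they were pooled. It also names a CMV-IRES-GFP control vector. No library analysed here carries that label, so injection, vector and WIF1 cannot be told apart. Each group was 1 library, so there are no replicates. Every difference below describes these libraries and has no test. Intervals are 95% intervals that cover counting error only.

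The endothelium of the retina forms the inner blood-retina barrier. Its cells are sealed by tight junctions, carry few transport vesicles, and take up glucose, amino acids and lipids through dedicated transporters. The barrier is built and kept by Wnt signalling: Norrin from Müller glia binds the receptor FZD4 with LRP5 or LRP6 and TSPAN12, beta-catenin (Ctnnb1) enters the nucleus, and LEF1 and TCF factors switch on targets such as Sox17, Axin2 and Apcdd1. Vessel walls also carry pericytes, mural cells that wrap the endothelial tube and are often caught with it.

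The libraries differed in depth and in RNA quality measures. They held 8556, 13528 and 10334 barcodes in the order control, 2 weeks and 4 weeks, and 7683, 9905 and 9637 nuclei were kept. The median kept nucleus had 1779, 838 and 1256 UMIs, and 1.98%, 0.559% and 0.640% mitochondrial UMIs. ATAC counts came to 37525307, 90490537 and 71304238 in the same order. The transcript Gm42418, which collects ribosomal RNA reads, stood at 4076 CPM (UMIs scaled to the same total in each set of nuclei) in the other nuclei of the control, 322 CPM at 2 weeks and 2420 CPM at 4 weeks. Any 2 libraries shared between 142 and 207 cell barcodes, and 0 of the shared barcodes were endothelial in both libraries.

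Some of the endothelial nuclei also carried RNA of other cell types. Their median depth was 2352 UMIs (control), 1903 (2 weeks) and 2589 (4 weeks), but the highest held 15479, 7862 and 67422 UMIs. The highest ATAC counts per nucleus were 31411, 41461 and 413158 in the same order. Rod photoreceptor genes took 1.36%, 1.15% and 2.96% of all endothelial UMIs. In the control, 1 nucleus held nearly all of the 1430 UMIs of blood genes (15.4% of its own UMIs), and 0 of the 16 pericyte genes were at 0, with 817 UMIs in sum against 125 at 2 weeks and 316 at 4 weeks. The pericyte marker Rgs5 had 138, 0 and 10 UMIs, and the pericyte receptor gene Pdgfrb had 27, 0 and 2. A doublet caller marked 15, 10 and 16 of the endothelial nuclei.

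A stricter set was therefore used beside the full one. It keeps the nuclei with fewer UMIs of 13 lists of other cell types than of the endothelial lists, and it was defined after these values were seen. Its 54 control, 47 2-week and 55 4-week nuclei are called endothelium-led below. Their summed RNA was of like depth, 133465, 99993 and 130590 UMIs, where the full sets summed to 256410, 136387 and 384115. The endothelial lists took 3.15%, 3.75% and 3.26% of their UMIs, the rod list 0.519%, 0.449% and 0.637%, and the called doublets among them were 3, 2 and 3. Genes of astrocytes, lymphocytes and fibroblasts had at most 2 UMIs in sum in any of the 3 sets. Traces of other cells remained in each set. In the control set, 6 nuclei held 159 UMIs of the neuronal gene Nrxn3 and 6 held 37 UMIs of Rgs5. At 2 weeks the set had 5 UMIs of Nrxn3 and 0 of Rgs5, and at 4 weeks 3 and 8. Müller glia genes summed to 1484, 2400 and 2159 CPM in the order control, 2 weeks and 4 weeks, with 4 of 5 measured genes higher than in the control at 2 weeks (median log2 ratio 0.64) and at 4 weeks (0.65). Rod genes summed to 5185, 4490 and 6371 CPM, with 6 of 15 higher at 2 weeks and 18 of 21 higher at 4 weeks. The part of these cells in the differences below was not tested.

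**Figure D1:**
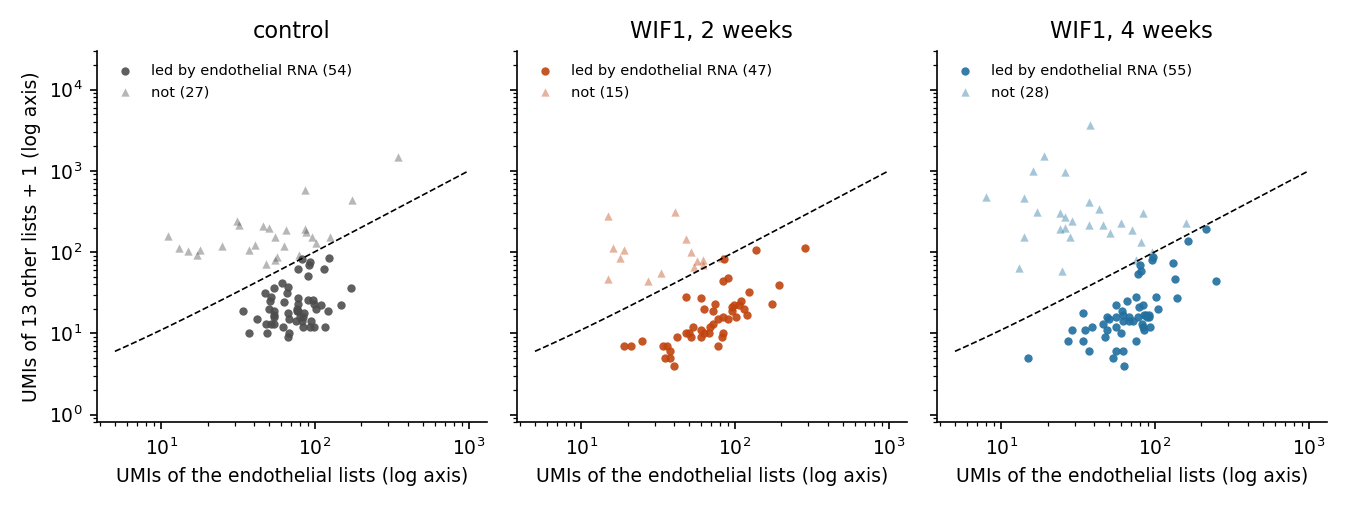
Each point is 1 endothelial nucleus, with the UMIs of the endothelial lists on the horizontal log axis and the UMIs of 13 lists of other cell types plus 1 on the vertical log axis, for the control, 2-week and 4-week libraries. The dashed line marks equal sums. Circles below it are the 54, 47 and 55 endothelium-led nuclei, and triangles above it are the 27, 15 and 28 others, which reach highest at 4 weeks.

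Nuclei at the edge of the rule were most numerous at 4 weeks. Exactly 4 of the genes were detected in 5, 5 and 11 nuclei in the order control, 2 weeks and 4 weeks. Several 4-week values changed under a rule of 5 genes and 8 UMIs, as given in the last section. Nuclei with 6 to 8 UMIs of the 10 genes numbered 1, 1 and 8 in the order control, 2 weeks and 4 weeks, and just outside, with at least 4 genes but 4 or 5 UMIs, there were 1, 1 and 5. Nuclei with 3 of the genes and at least 6 UMIs numbered 9, 5 and 9. The median endothelial nucleus held 36, 32 and 33 UMIs of the 10 genes, from 7 different genes in each library.

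Endothelial nuclei made up 1.05% of kept nuclei in the control (exact binomial interval 0.838% to 1.31%), 0.626% at 2 weeks (0.480% to 0.802%) and 0.861% at 4 weeks (0.687% to 1.07%). The 2-week share was 0.594 times the control share (0.420 to 0.837), and the 4-week share was 0.817 times it (0.594 to 1.12). The order changed with depth. Over nuclei of at least 1000 UMIs the 2-week share was 1.28% and its ratio to the control share 1.01. Among endothelium-led nuclei the 2-week ratio was 0.675 (0.447 to 1.02). A difference in share was thus not detectable among the deeper nuclei.

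Genes that the rule did not use are described here, and chromatin is given further below. Of 1391 genes outside the rule with at least 20 UMIs in the endothelial nuclei of each library, 208 were at least 10-fold and 53 at least 100-fold above the other kept nuclei in all 3 libraries. The leading gene was Tmem252, with 54, 68 and 46 UMIs in the 81, 62 and 83 endothelial nuclei and 4, 3 and 1 UMIs in all other kept nuclei. The organic anion transporter gene Slco1a4 had 512, 277 and 469 UMIs against 52, 27 and 36 in the other nuclei, which is 752-fold, 1011-fold and 641-fold by CPM. The drug efflux pump gene Abcb1a was 916-fold, 508-fold and 486-fold above the other nuclei. The remaining leading genes were the transcription factor genes Sox17, Sox18, Foxq1, Tbx1 and Mecom, the receptor genes Tie1, Adgrl4 and Cd93, the caveola gene Cavin2, and Ctla2a, Mal and AU021092. These genes come from the same RNA as the rule and are given as a description.

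The 10 genes of the rule differed in how steady they were. Cldn5, which encodes the main claudin of the barrier's tight junctions, had 782, 384 and 804 UMIs in all endothelial nuclei, and 4001 CPM (3669 to 4355) in the control, 3340 CPM (2992 to 3718) at 2 weeks and 4893 CPM (4521 to 5288) at 4 weeks in endothelium-led nuclei. Flt1, a decoy receptor for VEGF, stood at 4346, 3850 and 4158 CPM, and Ptprb, the phosphatase that restrains the angiopoietin receptor TEK, at 1776, 1950 and 1731 CPM. For both, the intervals of the 3 libraries overlapped. Kdr, the main VEGF receptor, had only 22, 15 and 20 UMIs.

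Ly6c1, a surface protein of capillary endothelium, was highest at 2 weeks: 5215 CPM (4835 to 5617) in the control, 8551 CPM (7987 to 9143) at 2 weeks and 4717 CPM (4352 to 5105) at 4 weeks. Its 2-week level was 1.64 times that of the control (1.48 to 1.82). Vwf, the clotting factor carrier stored in endothelial granules, had 24, 41 and 48 UMIs, which is 2.28 times the control at 2 weeks (1.34 to 3.94) and 2.04 times at 4 weeks (1.23 to 3.49). Tek was lower at 2 weeks, at 0.674 times the control (0.472 to 0.953). In the other nuclei Cldn5 and Ly6c1 stood at 1.04 to 5.06 CPM, but Flt1 at 43.3, 117 and 93.8 CPM. As a group the 10 genes had a median log2 ratio of -0.000415 at 2 weeks over control and -0.05 at 4 weeks over control in endothelium-led nuclei, and 0.27 and -0.66 in the full sets.

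**Figure D2:**
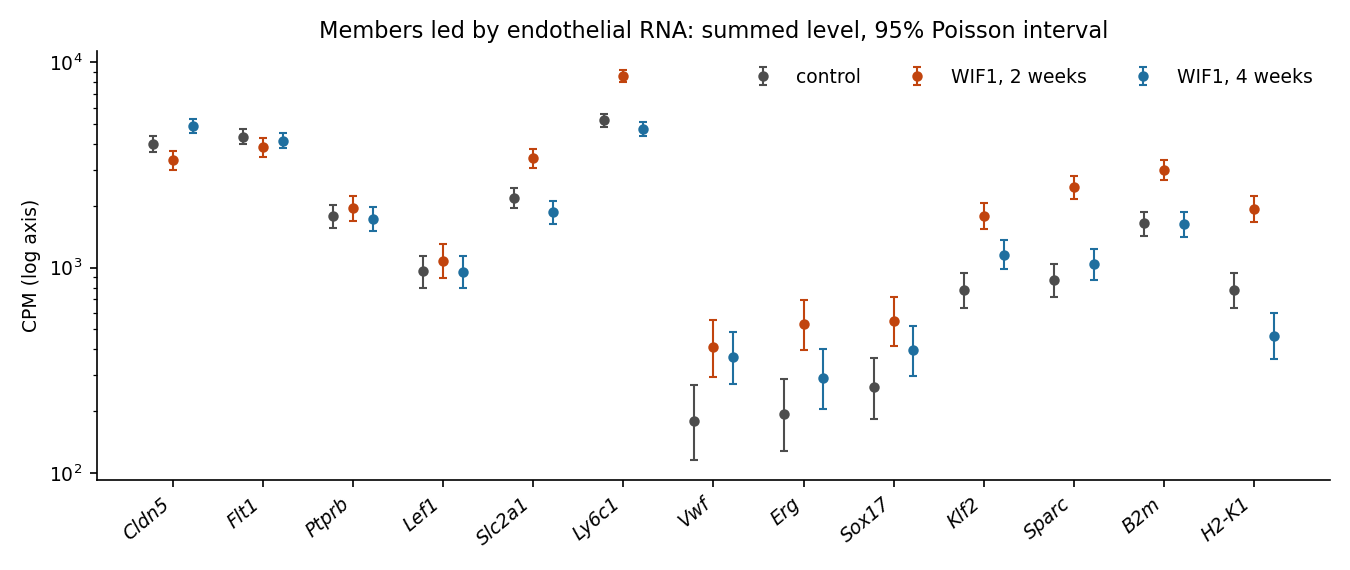
Summed levels in endothelium-led nuclei as CPM on a log axis, with 95% Poisson intervals, for the control, 2-week and 4-week libraries. The intervals of Flt1, Ptprb and Lef1 overlap between libraries, whereas Ly6c1, Klf2, Sparc, B2m and H2-K1 are highest at 2 weeks, H2-K1 at 1940 CPM against 779 CPM in the control.

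Between libraries, genes are called here when they differ by 2-fold or more with at least 20 UMIs over the pair. At 2 weeks against control, 6.46% of 4677 measured genes were called higher and 10.2% lower in all endothelial nuclei. At 4 weeks against control 12.8% of 6651 genes were higher and 7.26% lower, and at 4 weeks against 2 weeks 21.0% of 5810 genes were higher and 12.7% lower. In endothelium-led nuclei the shares were 9.05% higher and 10.5% lower of 2797 genes for 2 weeks against control, 5.20% and 5.74% of 3153 genes for 4 weeks against control, and 8.25% and 5.25% of 2703 genes for 4 weeks against 2 weeks. The 852 genes called higher at 4 weeks against control in the full set became 164 among endothelium-led nuclei. Rod RNA and very deep nuclei, described above, were highest in the full 4-week set, and their part in this difference was not tested. Values from endothelium-led nuclei are given below unless stated.

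Gene length moved with the 2-week library and touches every list below. Among endothelium-led nuclei, 512 measured genes under 10 kb had a median log2 ratio of 0.51 at 2 weeks over control, and 22.9% of them were called higher. Genes of 10 to 100 kb had a median of 0.00 with 7.36% called higher, and genes over 100 kb a median of -0.38 with 2.89%. The other nuclei had the same order with smaller medians, 0.18, 0.08 and -0.06. At 4 weeks over control the medians in endothelium-led nuclei were 0.23, 0.03 and -0.11. The part of gene length, or of the Gm42418 difference, in any list was not tested. The level of short genes is set beside the lists that hold many of them.

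**Figure D3:**
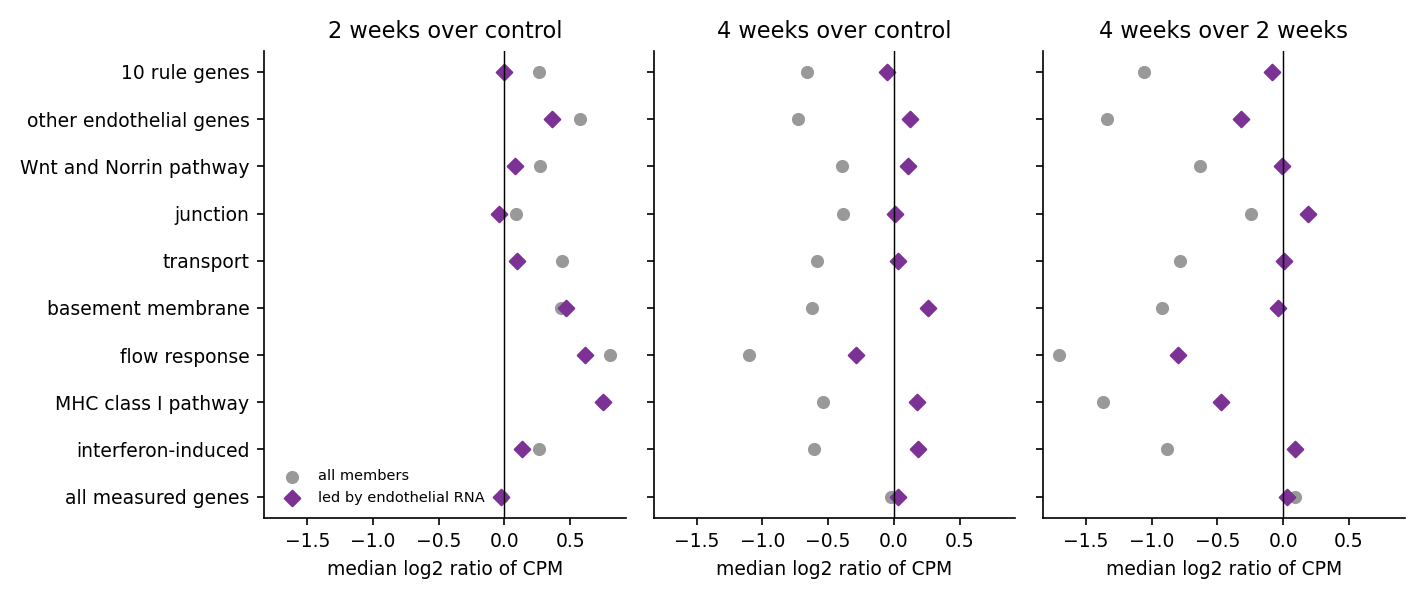
Median log2 ratio of CPM over the measured genes of each list, for 2 weeks over control, 4 weeks over control and 4 weeks over 2 weeks, in all endothelial nuclei (grey circles) and in endothelium-led nuclei (purple diamonds). Among the lists drawn, MHC class I, flow and matrix lie furthest right at 2 weeks, at 0.75, 0.61 and 0.47 in endothelium-led nuclei. At 4 weeks the full sets lie left of the endothelium-led sets for all 9 lists shown.

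Genes of MHC class I antigen presentation, which shows peptides from inside a cell to CD8 T cells, were mostly higher at 2 weeks. Of 24 listed genes 15 were measured, 14 were higher at 2 weeks than in the control, 5 of the 15 past 2-fold, and 1 was called lower. The median log2 ratio was 0.75, beside -0.02 over all measured genes, of which 9.05% were past 2-fold higher and 10.5% lower. Short genes make up most of this list, and its 12 measured genes under 10 kb had a median of 0.85 beside 0.50 for the 500 other genes of that length. In the 4-week library 8 of 14 were higher than in the control and 1 was past 2-fold higher, beside 5.20% of all measured genes. Among all endothelial nuclei 14 of 17 were lower at 4 weeks, with a median of -0.54.

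H2-K1, a classical class I heavy chain, had 104, 194 and 61 UMIs in the control, 2-week and 4-week sets, or 779 CPM (637 to 944), 1940 CPM (1677 to 2233) and 467 CPM (357 to 600). The 3 intervals did not overlap. It was 2.49 times the control at 2 weeks (1.95 to 3.19) and 0.600 times the control at 4 weeks (0.430 to 0.830). B2m, the light chain common to class I molecules, stood at 1641 CPM (1431 to 1873), 3000 CPM (2670 to 3360) and 1623 CPM (1412 to 1857). H2-D1, the other classical heavy chain of this strain, stood at 959, 1700 and 750 CPM.

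The remaining class I genes were thinner. The non-classical gene H2-T23 had 29, 47 and 33 UMIs, and H2-Q7 had 2, 16 and 1. Psmb8, a subunit of the immunoproteasome that cuts the peptides, had 20, 35 and 36 UMIs and was 2.34 times the control at 2 weeks (1.31 to 4.27) and 1.84 times at 4 weeks (1.04 to 3.35). Psmb10, its partner subunit, had 10, 17 and 26 UMIs. Tap2, a subunit of the peptide pump, had 19, 6 and 11 UMIs and was the listed gene called lower at 2 weeks. At 4 weeks H2-K1 was thus below its control value, while both proteasome subunits were above theirs. H2-D1 lay below and H2-T23 above its control value, each within counting error.

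The class I genes were already high in the control endothelium. Their sum was 5589 CPM in the control, 10190 CPM at 2 weeks and 5552 CPM at 4 weeks, against 820, 1458 and 807 CPM in all other nuclei. Nuclei chosen by pericyte genes (50, 45 and 52 nuclei) had 1544, 4487 and 1843 CPM, and nuclei chosen by Müller glia genes (288, 422 and 386 nuclei) had 1323, 4085 and 1678 CPM. The endothelial sum was highest in every library. For single genes the 2-week ratio differed between cell sets. B2m was 1.83 times the control in endothelium-led nuclei and 13.5 times in the other nuclei, a ratio of ratios of 0.135 (0.110 to 0.166). For H2-K1 the 2 ratios were 2.49 and 10.9, with a ratio of ratios of 0.227 (0.176 to 0.294). These intervals also cover counting error only.

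Interferon-induced genes showed a like contrast between cell types. In the other nuclei all 36 listed genes measured there and in the endothelial nuclei were higher at 2 weeks than in the control. The median log2 ratio of these 36 genes was 2.17 in the other nuclei and 0.26 in all endothelial nuclei. In endothelium-led nuclei it was 0.06, with some of the 36 genes below the usual count minimum. With the usual count minimum, 17 of 26 genes were higher in endothelium-led nuclei, with a median of 0.13. Of the 26, 2 were past 2-fold higher and 2 were called lower, near the shares over all measured genes, 9.05% and 10.5%. In the 4-week library 20 of 30 were higher than in the control, and in the full sets 38 of 44 were lower, with a median of -0.61. The summed level was 8309 CPM in the control, 10550 CPM at 2 weeks and 9174 CPM at 4 weeks in endothelium-led nuclei, and 248, 692 and 323 CPM in the other nuclei. The endothelial sum was the highest in each library and spanned the narrowest range by fold.

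Ifit1, an antiviral RNA-binding protein, was lower at 2 weeks in endothelium-led nuclei, with 39, 11 and 21 UMIs and a ratio of 0.377 (0.174 to 0.750), while in the other nuclei it was 5.90 times the control. Its relative Ifit3 had 24, 8 and 14 UMIs. Isg15, a ubiquitin-like protein induced by interferon, had 31, 24 and 35 UMIs. The membrane protein genes Ifitm3 and Ly6e were 1.71 times (1.42 to 2.05) and 1.64 times (1.35 to 2.00) the control at 2 weeks. Ifi27l2a was 12.01 times the control (3.70 to 61.9), on 27 UMIs in 6 nuclei against 3 UMIs in 1 nucleus, and 63.0% of the 27 lay in 1 nucleus. The chemokine gene Cxcl10 was seen only at 4 weeks, where 1 nucleus held all 15 UMIs.

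**Figure D4:**
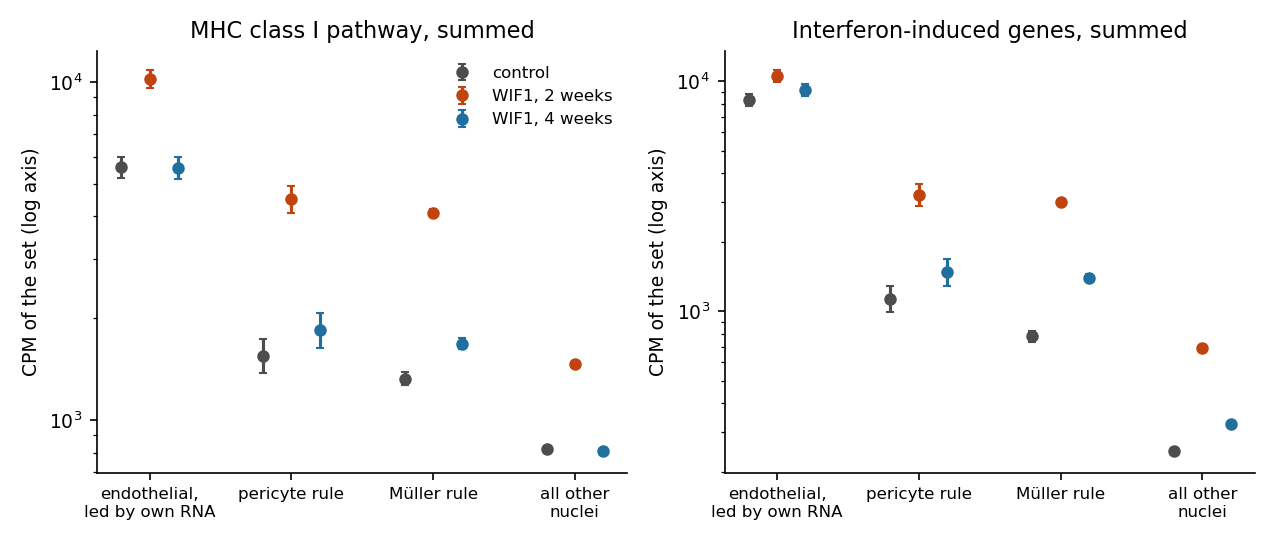
Summed CPM (log axis) of the MHC class I list and of the interferon-induced list in endothelium-led nuclei, nuclei chosen by pericyte genes, nuclei chosen by Müller genes and all other nuclei, by library, with 95% Poisson intervals. The endothelial points are highest in every library. The interferon sum runs from 8309 to 10550 CPM in endothelium-led nuclei and from 778 to 2993 CPM between control and 2 weeks in Müller-rule nuclei.

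The RNA of endothelial identity genes outside the rule was mostly higher at 2 weeks, whereas most of their measured promoters were not. These genes helped choose the endothelium-led nuclei, so their RNA levels there are a description only. Over all measured genes 9.05% were past 2-fold higher, with a median log2 ratio of -0.02. Of 32 identity genes 28 were measured, 19 were higher than in the control, 7 past 2-fold and 0 past 2-fold lower, with a median of 0.36. The 7 were the transcription factor genes Erg, Sox17 and Sox18, the receptor genes Tie1, Robo4 and Clec14a, and Rasip1, a regulator of vessel lumen formation. Erg, an ETS factor that maintains endothelial identity, had 26, 53 and 38 UMIs and was 2.72 times the control at 2 weeks (1.67 to 4.53). Sox17 had 35, 55 and 52 UMIs (2.10 times at 2 weeks, 1.35 to 3.30) and Sox18 had 25, 49 and 46 UMIs (2.62 times, 1.58 to 4.42). Tie1 had 22, 42 and 21 UMIs. Promoters were measured for 11 genes of the list, with ATAC peaks in all 3 libraries and at least 20 counts over the pair. In endothelium-led nuclei 2 of the 11 were more accessible at 2 weeks than in the control. Their median log2 ratio was -0.44, beside 0.01 over all 10469 measured promoters. The 11 do not include Erg, so the RNA and promoter values cover different sets of genes.

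Other identity genes stayed near their control level. Adgrl4, an adhesion receptor, stood at 1603, 1560 and 1662 CPM, and Mecom, a transcription factor gene, at 1663, 1760 and 1914 CPM, each with overlapping intervals. The ETS factor gene Fli1 had 113, 71 and 79 UMIs, with a 2-week ratio of 0.839 (0.614 to 1.14). The 5 measured genes of the list under 10 kb had a median log2 ratio of 1.07 at 2 weeks, beside 0.50 for other short genes. In the full sets 25 of 29 identity genes were higher at 2 weeks. At 4 weeks 28 of 29 were lower than in the control, 9 past 2-fold, where 7.26% of all measured genes were past 2-fold lower. Among endothelium-led nuclei 17 of 28 were higher at 4 weeks than in the control, and 0 were past 2-fold in either direction.

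Genes that respond to blood flow were also mostly higher at 2 weeks, and not only in endothelial nuclei. Of 8 measured genes 6 were higher at 2 weeks and 3 past 2-fold, where 9.05% of all measured genes were past 2-fold higher. The median log2 ratio was 0.61, beside 0.51 for other short genes and 0.54 for the 4 short genes of the list. In the other nuclei 7 of the genes were compared, and 5 were higher. Their median was 1.22 there and 0.55 in endothelium-led nuclei. Klf2, a transcription factor induced by laminar shear, had 104, 179 and 151 UMIs, or 779 CPM (637 to 944), 1790 CPM (1537 to 2072) and 1156 CPM (979 to 1356). It was 2.30 times the control at 2 weeks (1.79 to 2.95) and 1.48 times at 4 weeks (1.15 to 1.92). Edn1, which encodes the vasoconstrictor endothelin-1, had 42, 67 and 30 UMIs in 13, 15 and 14 nuclei, 2.13 times the control at 2 weeks (1.43 to 3.21). Klf4, close kin of Klf2, had 50, 37 and 36 UMIs, and its 2-week ratio was 0.988 (0.628 to 1.54). Nos3, the endothelial nitric oxide synthase, had 30, 29 and 18 UMIs. Immediate early genes, which tissue dissociation also induces, were likewise higher at 2 weeks in 7 of 7 cases, with a median of 0.61. At 4 weeks against control the lists parted. Of the immediate early genes 6 of 7 were higher, with a median of 0.73, and of the flow genes 3 of 7, with a median of -0.29. The part of immediate early genes in the flow list was not tested. Compared with 2 weeks, at 4 weeks 5.25% of all measured genes were past 2-fold lower. Of the flow genes 7 of 8 were lower, 3 past 2-fold, with a median of -0.80. In the full sets 8 of 8 were lower at 4 weeks than in the control, with a median of -1.10. Klf2 was among them, the opposite of its direction in endothelium-led nuclei.

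Basement membrane and matrix genes were higher at 2 weeks in 13 of 15 cases, 5 past 2-fold, with a median log2 ratio of 0.47. Over all measured genes 9.05% were past 2-fold higher, with a median of -0.02. The list was also mostly higher outside the endothelium. It was higher in 12 of 15 cases in the other nuclei (median 0.37), 9 of 11 in pericyte-rule nuclei (0.48) and 9 of 12 in Müller-rule nuclei (0.92). Sparc, a collagen-binding matrix protein, had 116, 246 and 136 UMIs in 44, 40 and 44 nuclei and was 2.83 times the control at 2 weeks (2.26 to 3.56). In the other nuclei it was 3.395 times, and the ratio of ratios was 0.834 (0.662 to 1.05), an interval that includes 1. Col18a1, source of endostatin, had 5, 21 and 6 UMIs, and its 21 came from 4 nuclei. The chains of collagen IV, the backbone of the basement membrane, were steady: Col4a1 had 66, 47 and 78 UMIs and Col4a2 had 45, 41 and 52. In the 4-week library 12 of 13 matrix genes were higher than in the control, 1 past 2-fold, beside 5.20% of all measured genes. Their median was 0.26, whereas in the full sets 15 of 16 were lower, with a median of -0.63. Sparcl1, a relative of Sparc, was 1.25 times the control at 2 weeks (1.03 to 1.52) and 1.46 times at 4 weeks (1.22 to 1.74).

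Wif1 itself had 0 UMIs in the endothelial nuclei of all 3 libraries. A count of 0 allows up to 11.7 CPM in the control, 22 CPM at 2 weeks and 7.81 CPM at 4 weeks. In the other kept nuclei Wif1 had 2, 16 and 40 UMIs, or 0.102, 1.19 and 2.12 CPM, so a level like that of the other nuclei would not have been detectable here.

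The listed genes of Wnt and Norrin signalling stayed near the level of all genes in endothelium-led nuclei. WIF1 captures Wnt ligands, and whether it acts on Norrin was not tested. Of 39 listed genes 18 were measured at 2 weeks against control. Of these 11 were higher, 2 past 2-fold and 1 past 2-fold lower, and the median log2 ratio was 0.08. Over all measured genes 9.05% were past 2-fold higher and 10.5% lower. At 4 weeks against control 11 of 17 listed genes were higher, 1 past 2-fold, beside 5.20% of all measured genes. Their median was 0.11. Over all endothelial nuclei 24 of 26 were lower at 4 weeks, with a median of -0.39 beside -0.02 over all genes. Among the receptors, Fzd4 had 22, 17 and 24 UMIs, or 165 CPM (103 to 250), 170 CPM (99.0 to 272) and 184 CPM (118 to 274). Its co-receptor Lrp5 had 13, 10 and 17 UMIs, Lrp6 had 20, 10 and 13, and the Norrin co-receptor Tspan12 had 10, 4 and 9.

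Of the nuclear factors, Lef1 had 128, 108 and 125 UMIs in 47, 40 and 47 nuclei. It stood at 959 CPM (800 to 1140) in the control, 1080 CPM (886 to 1304) at 2 weeks and 957 CPM (797 to 1140) at 4 weeks, against 1.58, 2.53 and 1.85 CPM in the other nuclei. Its ratio to the control was 1.13 at 2 weeks (0.864 to 1.47) and 0.998 at 4 weeks (0.774 to 1.29), so a 2-fold difference lay outside both counting intervals. Tcf4 encodes an E protein and is a different gene from Tcf7l2, the Wnt pathway factor whose product is also called TCF4. Tcf4 stood at 1978, 2260 and 2129 CPM with ratios of 1.14 (0.952 to 1.37) and 1.08 (0.906 to 1.28). Ctnnb1, which encodes beta-catenin, was higher at 2 weeks, with 49, 79 and 68 UMIs and a ratio of 2.15 (1.49 to 3.14), while in the other nuclei its ratio was 1.005. Apc, part of the complex that destroys beta-catenin, was lower, with 41, 12 and 22 UMIs and a ratio of 0.391 (0.187 to 0.758).

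Targets of the pathway had few UMIs. Axin2, a feedback inhibitor, had 10 UMIs in 8 nuclei in the control, 1 UMI at 2 weeks and 8 UMIs in 6 nuclei at 4 weeks, and the 2-week ratio of 0.134 had an interval of 0.00308 to 0.938. Apcdd1, another Wnt-induced inhibitor, pointed the other way with 14, 16 and 21 UMIs. Sox17, which is also counted among the identity genes, was higher at 2 weeks as given above. The barrier factor genes Foxq1 (43, 35 and 43 UMIs) and Foxf2 (12, 13 and 12 UMIs) did not differ beyond their counting intervals.

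In endothelium-led nuclei the barrier lists also stayed near their control level. For tight and adherens junctions 14 of 21 genes were measured, 6 were higher at 2 weeks and 8 at 4 weeks than in the control, and 0 were past 2-fold, with medians of -0.04 and 0.01. The tricellular junction gene Lsr stood at 532, 620 and 536 CPM, the scaffold gene Tjp1 at 1236, 1150 and 1371 CPM, and occludin (Ocln) at 300, 200 and 390 CPM with 40, 20 and 51 UMIs. The barrier transporters had medians of 0.10 at 2 weeks (14 of 24 higher, 1 past 2-fold in each direction) and 0.03 at 4 weeks (13 of 25 higher, 1 past 2-fold lower). Over all measured genes 9.05% were past 2-fold higher and 10.5% lower at 2 weeks, and 5.74% lower at 4 weeks. In the full sets 12 of 14 junction genes and 22 of 25 transport genes were lower at 4 weeks than in the control, with medians of -0.39 and -0.58.

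Single transporters differed more. Slc2a1, the glucose transporter of the barrier, stood at 2188 CPM (1944 to 2454), 3400 CPM (3048 to 3782) and 1861 CPM (1634 to 2110), 1.55 times the control at 2 weeks (1.32 to 1.82). Its ratio in the other nuclei was 1.44, and the ratio of ratios was 1.08 (0.906 to 1.30). Tfrc, the transferrin receptor that carries iron across the barrier, had 38, 10 and 26 UMIs and was 0.351 times the control at 2 weeks (0.156 to 0.718). Abcb1a was higher at 4 weeks than in the control, 1.37 times (1.12 to 1.67). Mfsd2a, the lipid transporter that keeps transcytosis low, had 38, 42 and 42 UMIs. Of caveola genes, Cavin1 and Cavin2 were past 2-fold at 2 weeks, at 2.67 times (1.52 to 4.82) and 2.64 times (1.80 to 3.92), whereas Cav1 had 17, 17 and 12 UMIs. Plvap, the diaphragm protein of leaky endothelium, had 0 UMIs in endothelium-led nuclei of all 3 libraries, and the adhesion gene Sele likewise.

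Further genes were picked by their ratio alone. At 2 weeks against control the 10 named higher genes were Ifi27l2a, Skp1a, Clu, Abhd17a, Actb, Arpp19, Jag1, Plk2, Sparc and Smdt1. Actb, the cytoskeletal beta-actin, had 115, 291 and 228 UMIs and was 3.38 times the control at 2 weeks (2.71 to 4.23) and 2.03 times at 4 weeks (1.61 to 2.56), while in the other nuclei it was 1.66 times at 2 weeks and 0.827 times at 4 weeks. Jag1, a Notch ligand of arteries, had 4, 21 and 12 UMIs in 4, 12 and 11 nuclei. Plk2, a stress-induced kinase, had 10, 35 and 31 UMIs, and in the other nuclei its 2-week ratio was 0.853. Genes named lower at 2 weeks were mostly the neuronal and mural genes of a few control nuclei (Nrxn3, Syt1, Lsamp, Rorb, Pde10a, Sphkap and Rgs5, in 5 to 8 control nuclei each). The others were Ccser1 (33 and 1 UMIs, in 19 and 1 nuclei), Prkcb (21 and 0 UMIs, in 12 and 0 nuclei) and Gm42418, which had 474, 43 and 424 UMIs and was low in the other nuclei of that library too.

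At 4 weeks against control the gene named first was Gkn3, a secreted protein of arterial endothelium, with 4, 10 and 43 UMIs in 3, 4 and 8 nuclei and a ratio of 10.99 (3.99 to 42.1). In the full sets its ratio at 4 weeks was 0.886, since 1 control nucleus held 80.8% of the 52 UMIs there. Myl12a, a myosin light chain, had 42 UMIs in the control and 100 at 4 weeks, 2.43 times (1.68 to 3.58). The others named higher (Smdt1, Rgs9, Ccdc82, Mtmr2, Smarcc2, Sat1 and Hpcal1) had 18 to 26 UMIs at 4 weeks. At 4 weeks against 2 weeks the genes named lower included H2-K1, H2-D1, Sparc, Edn1 and Mgp.

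Genes of different vessel types were mixed within nuclei. With at least 2 genes of a list, 74, 54 and 74 of the 81, 62 and 83 nuclei held arterial genes, 76, 59 and 77 capillary genes, and 29, 25 and 23 venous genes. Most nuclei thus carried arterial and capillary genes together (69, 52 and 69), and these lists do not split them into separate types. Arl15, which is on the arterial list, was seen in 42, 43 and 50 of the 54, 47 and 55 endothelium-led nuclei and carries much of that count. Of the 17 arterial genes 7 were measured in endothelium-led nuclei, and 6 of them were higher at 2 weeks than in the control, with a median log2 ratio of 0.85. In the full sets 5 of 12 were higher, 1 past 2-fold, 3 were past 2-fold lower and the median was -0.03. Over all measured genes there 6.46% were past 2-fold higher and 10.2% lower. The arterial list is not particular to endothelium. It summed to 6376, 8611 and 8829 CPM in endothelium-led nuclei and to 5716, 10680 and 9538 CPM in nuclei chosen by pericyte genes. The part of pericyte RNA in the arterial values was not tested. Fewer nuclei held Mgp, a matrix protein of arteries, which had 242 UMIs in 32 nuclei, 346 in 22 and 225 in 13, and the chemokine gene Cxcl12 had 284, 219 and 480 UMIs in 42, 36 and 41 nuclei. Cxcl12 was 1.73 times the control at 4 weeks (1.49 to 2.01). The capillary proteoglycan gene Spock2 was seen in 51, 44 and 54 nuclei and was 1.41 times the control at 2 weeks (1.21 to 1.64) and 1.35 times at 4 weeks (1.16 to 1.56). Among venous genes, the adhesion gene Vcam1 had 10, 6 and 25 UMIs in 4, 4 and 6 nuclei. Thinned to 500 UMIs per nucleus, an expected 48.9%, 49.7% and 46.9% held 2 arterial genes and 5.47%, 6.20% and 4.30% held 2 venous genes.

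The chromatin of the same nuclei was a readout that the rule did not use. Counts of peaks lying at most 1000 bp from the start of a gene were summed in endothelial and in other kept nuclei, each as a share of all peak counts of that set. Of the 10 rule genes 0 had such a peak in the control, the library with the fewest ATAC counts, 7 had one at 2 weeks and 4 at 4 weeks. Their promoters were 20 times as accessible in endothelial as in other nuclei at 2 weeks (16.7 to 23.8) and 11.8 times at 4 weeks (9.83 to 14.2). In endothelium-led nuclei the values were 24.7 and 36.8. Identity genes outside the rule had peaks at 14, 19 and 15 genes and were 3.41, 3.39 and 2.25 times as accessible, with 14 of 14, 18 of 19 and 15 of 15 genes higher in endothelial nuclei. Rod gene promoters were at 0.311, 0.390 and 0.872 times, and at 0.220, 0.215 and 0.267 times in endothelium-led nuclei, so rod chromatin, like rod RNA, was highest in the full 4-week set.

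**Figure D5:**
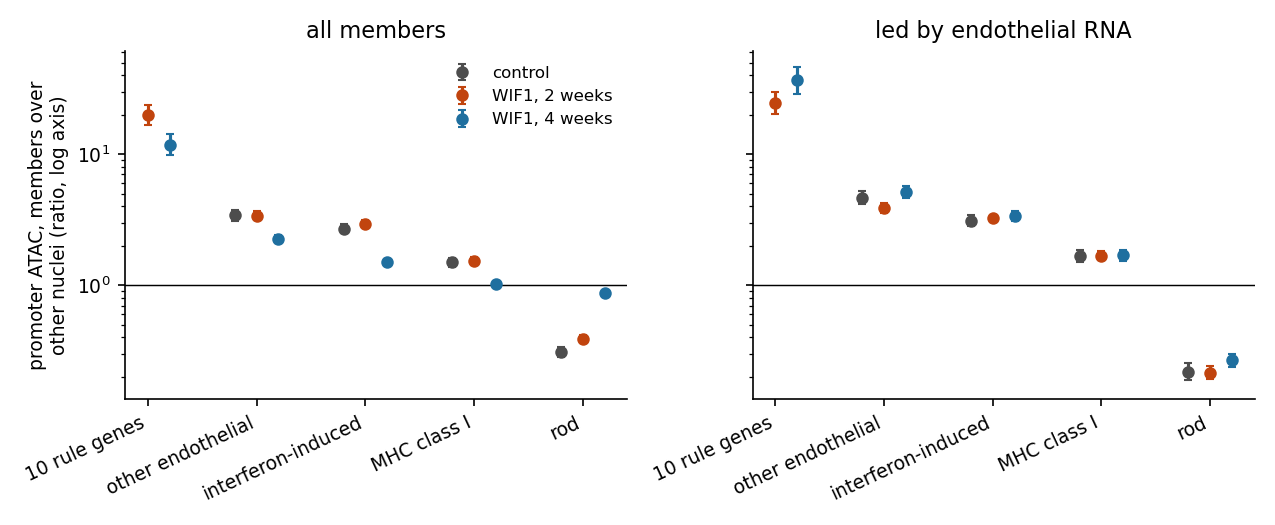
ATAC counts in promoter peaks of 5 gene lists as a ratio of endothelial to other nuclei (log axis, line at 1), with 95% counting intervals, for all endothelial nuclei (left) and endothelium-led nuclei (right). The control has no point for the 10 rule genes, since 0 of them have a promoter peak there. Rod promoters reach 0.872 at 4 weeks in the full set and 0.267 in endothelium-led nuclei.

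Single promoters showed the same separation. The promoter of Ptprb had 51 counts in the 62 endothelial nuclei at 2 weeks and 40 in all other nuclei of that library, 131 times the accessibility (85.0 to 204). Tie1 had 43 and 29 counts at 2 weeks (152 times, 93.0 to 253) and 58 and 24 at 4 weeks (77.9 times, 47.6 to 131). Cd34, a sialomucin of endothelium and progenitor cells, had 29 and 73 counts in the control (25.2 times, 15.8 to 39.2) and 24 and 49 at 2 weeks (50.4 times, 29.6 to 83.7). Flt1 had 38 and 142 counts at 2 weeks (27.5 times, 18.7 to 39.6) and 74 and 185 at 4 weeks (12.9 times, 9.71 to 17.0). Erg was an exception. The peak at its annotated start held 0, 1 and 4 counts in endothelial nuclei and 78, 62 and 70 in the others, although its RNA was endothelial.

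The promoters of Flt1, Tie1 and Cd34 are shown because they are among the best separated, a receptor of the rule and a pair of genes outside it. Each is the 250 bases before the gene's start from RefSeq GRCm38.p6, the patch release of the mm10 build of the files: Flt1 at chr5:147726012-147726261 on the minus strand, Tie1 at chr4:118489850-118490099 on the minus strand and Cd34 at chr1:194938571-194938820 on the plus strand. Capitals mark the 6-letter ETS motif searched, CAGGAA or its reverse complement TTCCTG.
Flt1: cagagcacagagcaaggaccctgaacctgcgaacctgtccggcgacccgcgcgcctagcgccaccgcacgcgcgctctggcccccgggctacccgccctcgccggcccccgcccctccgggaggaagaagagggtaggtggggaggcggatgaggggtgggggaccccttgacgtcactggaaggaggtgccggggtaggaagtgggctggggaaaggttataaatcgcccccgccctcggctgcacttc
Tie1: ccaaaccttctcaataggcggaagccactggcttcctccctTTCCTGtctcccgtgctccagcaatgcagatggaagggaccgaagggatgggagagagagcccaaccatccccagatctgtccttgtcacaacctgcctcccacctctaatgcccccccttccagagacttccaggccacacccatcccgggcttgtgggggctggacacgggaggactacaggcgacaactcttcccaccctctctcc
Cd34: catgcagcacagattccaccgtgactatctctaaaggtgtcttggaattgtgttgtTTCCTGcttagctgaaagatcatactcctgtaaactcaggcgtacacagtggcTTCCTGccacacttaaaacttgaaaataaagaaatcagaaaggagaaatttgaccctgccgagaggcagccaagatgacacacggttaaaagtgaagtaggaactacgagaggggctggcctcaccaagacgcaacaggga

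The ETS letters occur 0 times in the Flt1 stretch, 1 time in that of Tie1 and 2 times in that of Cd34. They were found in 10 of the 20 promoters of identity genes present in the table (50%), in 2 of the 6 of rule genes (33.3%) and in 25.7% of all 32851 promoters of that length. The letters of a TCF/LEF motif, CTTTGA or TCAAAG, which do not overlap the ETS letters, were found in 4 of 20 (20%), 0 of 6 and 13.8%. A match is a description of letters in this window and says nothing of binding.

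Over all peaks, 7838 peaks overlapped between the 3 libraries with at least 20 endothelial counts in each, and 202 of them were at least 5-fold and 78 at least 10-fold more accessible in endothelial than in other nuclei in all 3. The first, chr17:13683451-13684339 in the control's peak list, held 85, 130 and 100 endothelial counts and was 112, 105 and 55.6 times as accessible. It lay at the annotated start of the noncoding gene Gm16046, and the nearest coding gene, Tcte2, was 32097 bp away. The second lay within the body of Tmtc1 (chr6:148384165-148385009, 55.6, 106 and 55.3 times). The third, chr3:142493395-142494294, lay 2640 bp from the interferon-induced gene Gbp5 and was 74.7, 84.3 and 51.9 times as accessible. Others of the first 10 lay within the bodies of Uaca, Sash1 and Tead4, and at a start of Fam107a. Distance to a gene does not show which gene a peak acts on.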

How the data were processed

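Gene UMI counts and ATAC counts in peaks per barcode, deposited by the authors per the file headers as whole-number counts, were used for 3 multiome libraries. Cell Ranger ARC 2.0.1, Seurat 5.0.1, Signac 1.12.0 and mm10 are named per the submitters' processing notes, without their roles. Spatial samples were not analysed here. Nuclei were filtered and chosen as the report states, and counts were summed per library over 32285 genes. CPM intervals are exact Poisson, shares Clopper-Pearson and ratios conditional binomial, at 95%. UMI totals of the endothelial nuclei were 256410, 136387 and 384115. With 1 library per group no test was made. A gene is called at 2-fold with at least 20 UMIs over the pair. Log2 ratios and calls use 3 counts where a library has fewer, and printed ratios use the counts as they are. For a count of 0 a limit of 3 counts is given. Doublets were called from Scrublet scores (scanpy 1.11.5) and kept in the main sets. The score cut was set to an expected rate of 0.8% per 1000 kept nuclei. The scripts (Python 3.11.15, numpy 2.4.6, scipy 1.17.1, pandas 2.3.3, matplotlib 3.10.9) were tested on simulated data. Mitochondrial, Y-linked, rule and rod genes, Xist and Tsix were left out of the ranking by ratio. Named genes were, per pair, the 10 highest and 10 lowest by the interval limit nearest to 1 among called genes seen in at least 5 nuclei. To these came list members with most UMIs or past 2-fold, the 10 rule genes, Wif1, Tcf4, Lef1, Fzd4, Axin2 and Apcdd1, and 15 genes of the type. The nuclei, rule and 38 gene lists were chosen with earlier results of these data known. The endothelium-led set and the split by gene length (RefSeq) were chosen after seeing the data. Alternatives changed the UMI minimum, the rule, doublets, rod-rich nuclei, scaling, UMI minimum per pair, fold and peak window.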

Additional observations from a re-analysis of the deposited data

How the results depend on the processing

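Of 317 values that answer a comparison, recomputed under each alternative from all endothelial nuclei, 218 kept their direction and size, 95 moved and 4 reversed. Of 400 values of single genes 340 kept, 50 moved and 10 reversed. The cause was not tested for any of them. Numbers for lists are median log2 ratios, and "2w" and "4w" are 2 and 4 weeks against control unless 4w against 2w is named.

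With a UMI minimum of 1000 the share was 1.28% at 2w and 1.19% at 4w, the share ratios were 1.01 (2w) and 0.932 (4w against 2w), and interferon was 0.15 (2w). Without nuclei of 5% or more rod UMIs in the denominator the shares were 2.08%, 1.63% and 1.71%. With at least 10 UMIs over the pair 652 genes were higher and 751 lower (2w), 1368 and 928 (4w), and 1258 lower (4w against 2w), and MHC class I was -0.77 (4w). With at least 40 UMIs the counts were 105 and 157 (2w), 496 and 207 (4w), and 722 and 380 (4w against 2w). At a fold of 1.5 they were 818 and 1048 (2w), 1516 and 1322 (4w), and 1494 lower (4w against 2w).

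Without called doublets, 2w medians were 0.30 (identity genes), 0.41 (flow), -0.0487 (interferon), 0.28 (matrix), 0.46 (MHC class I), 0.28 (transport) and 0.13 (Wnt), 4w medians were -1.34 (flow), -0.59 (junction), -0.83 (matrix), -0.70 (transport) and -0.53 (Wnt), and 314 genes were lower at 2w.

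In endothelium-led nuclei 4w medians reversed to 0.26 (matrix), 0.17 (MHC class I) and 0.11 (Wnt), and single ratios to 1.19 (Cavin2), 1.48 (Klf2), 1.15 (Ly6e) and 1.20 (Sparc) at 4w and 3.34 (Gkn3) at 2w. Other 4w medians were -0.29 (flow), 0.00946 (junction) and 0.0314 (transport). The 2w medians were 0.36 (identity), 0.13 (interferon), 0.10 (transport) and 0.0821 (Wnt), and 4w against 2w -0.80 (flow) and -0.48 (MHC class I). Genes called were 294 lower (2w), 164 higher and 181 lower (4w), and 223 higher and 142 lower (4w against 2w). Shares were 0.703%, 0.475% and 0.571%, and promoter ratios 4.66, 3.90 and 5.13 (identity) and 24.7 and 36.8 (rule, 2w and 4w).

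With a rule of 3 genes and 4 UMIs, shares were 1.31% (control) and 1.08% (4w), 2w medians were 0.76 (identity), 0.46 (interferon), 0.60 (matrix), 1.03 (MHC class I) and 0.59 (transport), transport was -0.70 at 4w, and 4w against 2w gave -1.92 (flow) and -1.50 (MHC class I). With 5 genes and 8 UMIs, 4w ratios reversed to 1.21 (Cavin2), 1.11 (Ifitm3), 1.34 (Klf2), 1.04 (Lef1) and 1.15 (Ly6e), and transport to 0.25. Other 4w medians were -0.39 (flow), 0.0468 (junction), -0.00164 (matrix), 0.0427 (MHC class I) and 0.0874 (Wnt), 4w against 2w gave -0.92 (flow) and -0.57 (MHC class I), and 265 genes were higher at 4w, with 400 higher and 230 lower at 4w against 2w. Without the top nucleus of each gene, medians were 0.60 (flow, 2w), 0.88 (MHC class I, 2w), -0.39 (MHC class I, 4w) and -0.46 (transport, 4w).

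For at least 3 genes per vessel list, shares in the order control, 2w, 4w were 60.5%, 53.2% and 59.0% (arterial), 16.1%, 14.5% and 10.8% (venous), and 83.1% at 4w (capillary). Peaks within 250 bp gave identity promoter ratios of 4.04, 4.06 and 2.50, and the share of promoter counts gave 2.44 at 4w. No paired analysis was possible because each group is 1 library. Depth limits genes with few UMIs, such as Axin2 and Fzd4.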
